A study of Mus musculus with 454 samples.

Results

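Pvalb, Acan, Bcan, Ncan, Hapln1 and Tnr encode parvalbumin and 5 proteins of the perineuronal net, and they are 6 of the 43346 genes in the count table. They were listed by name for their known roles, though earlier results of these data were known when they were chosen. The series asked how isolating adolescent mice alters brain transcripts, and its title names the medial amygdala and reward. RNA was read from 454 libraries of 4 brain regions, labelled VTA (ventral tegmental area, 115 libraries), PFC (prefrontal cortex, 112), Nac (nucleus accumbens, 112) and AMY (amygdala, 115). Within each region, females (F) and males (M) were either group-housed (G) or socially isolated (SI), and received saline (cocaine dose 0) or cocaine at 7.5 mg/kg on a schedule labelled acute (A) or chronic (CHR). These 16 groups per region held 5 to 8 libraries each. Strain, age and number of injections are not given in the labels, and the chronic saline groups are the controls of chronic cocaine only.

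Perineuronal nets are lattices of extracellular matrix around the soma and proximal dendrites of certain neurons, most often fast-spiking inhibitory neurons that contain the calcium buffer parvalbumin. Hyaluronan forms the backbone, to which the chondroitin sulphate proteoglycans aggrecan, brevican and neurocan (Acan, Bcan, Ncan) bind with the help of link proteins such as Hapln1, while tenascin-R (Tnr) holds proteoglycans together at their other end. The nets form late in postnatal life, depend on activity, and have been studied in relation to stress, housing and drug reward. Astrocytes and cells of the oligodendrocyte lineage also make brevican, neurocan and tenascin-R, so that these transcripts are not specific to neurons with nets.

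Library totals ran from 11.21 to 52.34 M counts with a median of 21.71 M, and levels are given as CPM, counts scaled to library size. Whether each library is its own animal is not stated in the labels, and p-values reflect only how these samples spread, which may be technical. In such bulk tissue, fewer cells of a type and less RNA per cell cannot be told apart. Of the 454 libraries, 21 stood apart in their transcripts, and they are left out where stated. Of these, 9 did so through transcripts of the choroid plexus and 3 through transcripts of the opposite sex. The numbers in the sample titles fall into series that the labels do not explain, called here series 500, 1000, 1100 and 1200. Acute groups were all in series 1000 and 1100, chronic saline in 500 and 1200, and chronic cocaine in 1000 and 1200. Region labels matched their markers: the median level of the dopamine neuron list, a mean log2 CPM, was 7.52 in VTA and at most 0.95 elsewhere. Tnr exons overlap those of Gm38039 on the opposite strand, and the strand setting of the counting is not given in the sources used here.

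The promoters of Pvalb, Acan and Hapln1 are shown because these 3 genes varied together across VTA libraries, as described further on. They come from RefSeq (GRCm38.p6) and hold 250 bases before and 50 after a transcript start, and all 6 genes had at least 1 entry. Capitals mark the E box, CANNTG, searched on both strands, which 72.31% of 32851 RefSeq promoters of this length contain.
Pvalb start 1, chr15:78206351-78206650, minus strand: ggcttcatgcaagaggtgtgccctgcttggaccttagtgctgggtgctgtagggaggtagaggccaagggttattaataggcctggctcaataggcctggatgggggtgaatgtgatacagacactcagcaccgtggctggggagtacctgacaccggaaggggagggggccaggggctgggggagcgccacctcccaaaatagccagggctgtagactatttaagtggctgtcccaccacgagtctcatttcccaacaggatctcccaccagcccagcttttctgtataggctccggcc
Pvalb start 2, chr15:78204188-78204487, minus strand: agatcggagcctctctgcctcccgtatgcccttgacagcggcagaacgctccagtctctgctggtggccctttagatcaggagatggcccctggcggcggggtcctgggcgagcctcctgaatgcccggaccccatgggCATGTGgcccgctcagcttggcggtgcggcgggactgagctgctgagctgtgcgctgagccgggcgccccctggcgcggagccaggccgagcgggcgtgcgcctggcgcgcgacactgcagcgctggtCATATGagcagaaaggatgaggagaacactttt
Acan, chr7:79052976-79053275, plus strand: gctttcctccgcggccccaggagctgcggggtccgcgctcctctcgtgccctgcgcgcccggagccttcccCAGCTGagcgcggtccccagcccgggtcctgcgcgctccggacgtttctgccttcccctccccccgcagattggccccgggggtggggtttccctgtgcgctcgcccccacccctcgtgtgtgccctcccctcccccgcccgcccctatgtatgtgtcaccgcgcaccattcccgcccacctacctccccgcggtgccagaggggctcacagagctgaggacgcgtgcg
Hapln1, chr13:89540386-89540685, plus strand: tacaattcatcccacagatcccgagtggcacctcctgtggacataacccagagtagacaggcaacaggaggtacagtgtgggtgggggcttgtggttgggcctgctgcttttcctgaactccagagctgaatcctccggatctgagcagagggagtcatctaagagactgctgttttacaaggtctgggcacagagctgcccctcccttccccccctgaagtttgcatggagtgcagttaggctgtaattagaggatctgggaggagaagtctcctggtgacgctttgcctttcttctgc
The first Pvalb window and the Hapln1 window held 0 E boxes, the second Pvalb window held 2 and the Acan window 1. Acan had the highest GC content of the 7 windows of the 6 genes (74.0%) and 3 GC boxes (GGGCGG, either strand, found in 35.66% of all promoters). Hapln1 held 1 copy of the cyclic AMP response core TGACG on either strand, which 20.81% of all promoters contain. The remaining windows, those of Bcan, Ncan and Tnr, held 0, 4 and 0 E boxes.

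Each of the 6 genes differed in level between regions, and Pvalb and Acan differed most. Parvalbumin (Pvalb, chr15:78191114-78206400 on GRCm38) had a median of 3.59 CPM in AMY (1.37 to 31.3), 5.89 in Nac (1.02 to 23.7), 14.5 in PFC (8.39 to 32.5) and 72.0 in VTA (15.8 to 224.6). The VTA level was 16.2-fold that of AMY (log2 difference -4.02, AMY minus VTA, SE 0.12, adjusted p = 4.44e-117 edgeR quasi-likelihood test, Benjamini-Hochberg adjustment) and 5.09-fold that of PFC. Among libraries that share a title number, Pvalb was higher in VTA than in AMY in 102 of 102 and higher than in PFC in 105 of 106. Aggrecan (Acan, chr7:79053483-79115099), the proteoglycan most closely tied to the nets, followed with a median of 12.5 CPM in VTA (4.11 to 46.5) against 3.97 in AMY, 3.29 in Nac and 2.99 in PFC. Its VTA level was 3.29-fold, 3.88-fold and 4.52-fold that of AMY, Nac and PFC, and in 106 of 106 title numbers it was above PFC.

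The other matrix genes differed less between regions. Brevican (Bcan, chr3:87987531-88000230) had medians of 317 CPM in VTA, 293 in Nac, 233 in AMY and 204 in PFC, and Nac exceeded PFC in 99 of 99 title numbers. Neurocan (Ncan, chr8:70093085-70120873) ran the other way, with medians of 307 CPM in PFC, 251 in Nac, 177 in AMY and 112 in VTA. Ncan in PFC was 2.73-fold its VTA level (log2 difference 1.45, SE 0.02) and higher in 106 of 106 title numbers. The link protein gene Hapln1 (chr13:89539796-89611652) had medians of 21.6 CPM in PFC, 19.8 in Nac, 16.1 in AMY and 15.95 in VTA. Tnr (chr1:159523769-159931729) stood at 295 CPM in PFC, 265 in AMY, 232 in Nac and 193 in VTA.

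Per kilobase of exon, so that genes can be compared, brevican was the highest of the 6 in AMY, Nac and PFC (57.4, 72.2 and 50.2 CPM per kb) and also in VTA (78.0), where Pvalb came next at 69.2. In the other regions neurocan and tenascin-R followed brevican (24.6 and 20.6 CPM per kb in AMY), and Acan was the lowest everywhere, at 1.68 in VTA, 0.532 in AMY, 0.440 in Nac and 0.400 in PFC. Of 36 tests of a gene between regions, 34 passed the threshold of adjusted p under 0.05. The background was high: 84.4% of the 18627 genes tested passed between AMY and Nac, 81.5% between AMY and PFC, 87.3% between AMY and VTA, 86% between Nac and PFC, 90.4% between Nac and VTA and 89.3% between PFC and VTA. The exceptions were neighbours in the order of levels: Tnr in AMY and PFC (-0.08, SE 0.04, adjusted p = 0.0547) and Hapln1 in AMY and VTA (0.07, SE 0.03, adjusted p = 0.0517). Tnr passed without the libraries that stand apart (-0.10, adjusted p = 0.00309), and Hapln1 with RLE factors (adjusted p = 0.0153).

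Spread within a region also set the genes apart. The coefficient of variation of Pvalb over all libraries of a region was 28.2% in PFC, 56.0% in VTA, 71.5% in Nac and 94.95% in AMY, against 11.97%, 10.2%, 11.4% and 14.6% for Bcan. Acan lay between, from 20.2% in PFC to 48.3% in VTA.

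**Figure D1:**
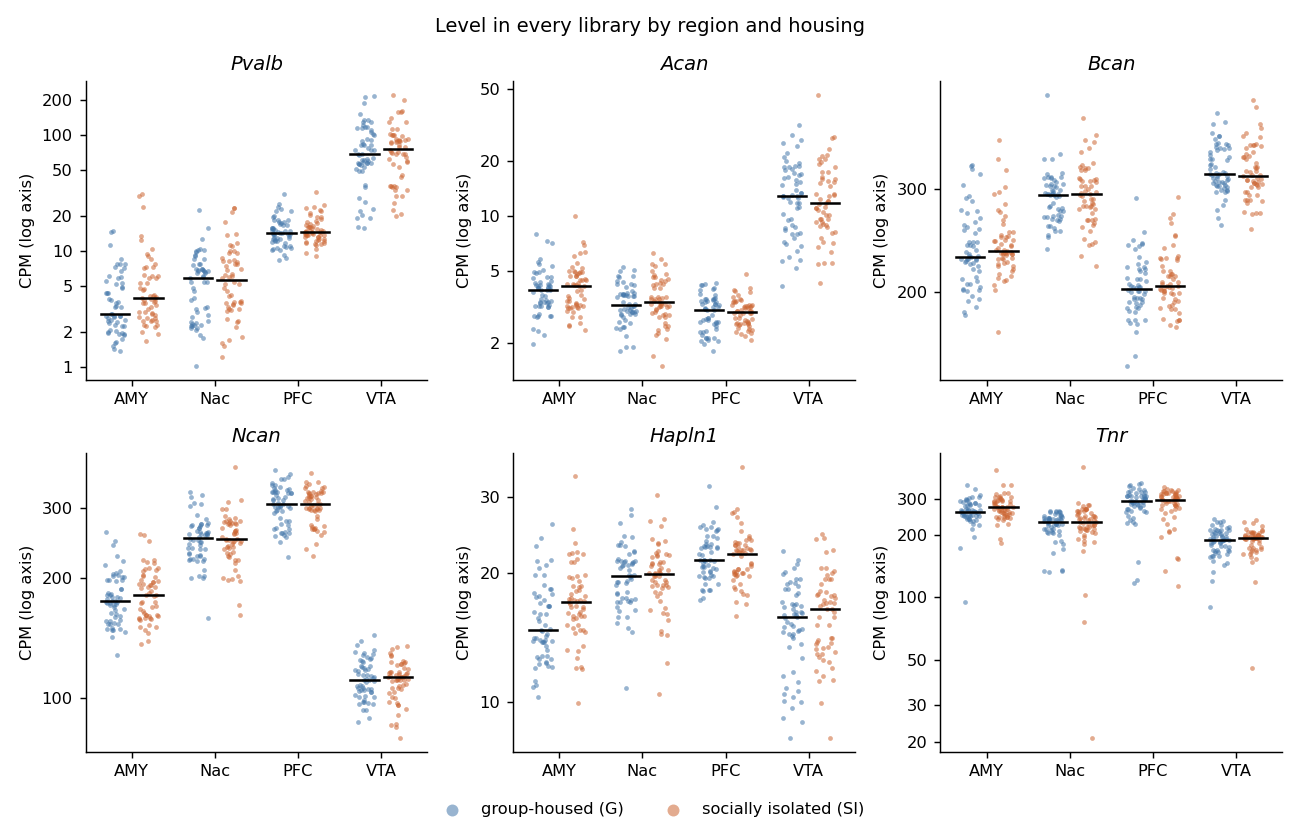
Each point is a library, with its level in CPM on a log axis, by region and by housing (blue, group-housed; orange, isolated), and black bars are medians. VTA stands highest for Pvalb, Acan and Bcan and lowest for Ncan and Tnr, while group-housed and isolated libraries overlap for every gene and region, Pvalb and Hapln1 in AMY included.

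Housing was examined first, as the mean over the 8 pairs of groups in a region that differ in housing alone. None of the 6 genes passed the threshold in any region (0 of 6 in AMY, Nac, PFC and VTA), and 0% of all genes tested passed in each of the 4 regions, so that the comparison made no calls at all. At an unadjusted p under 0.05, 2 of the 24 values stood out, both in AMY and both higher in isolation. Of all 17391 genes tested in AMY, 708 had such a p. Pvalb in AMY ran from 1.37 to 15.1 CPM with a median of 2.88 in group-housed mice and from 1.68 to 31.3 with a median of 3.93 in isolated mice (means 4.18 ± 2.98, SD, n = 58, and 5.93 ± 6.01, n = 57). The isolated range reached well above the group-housed one while their lower ends overlapped. Its top held single libraries at 31.3, 29.9 and 24.3 CPM, in groups whose other libraries reached at most 7.74, 6.16 and 6.21. Of the isolated libraries, 41 of 57 lay above the group-housed median, and 7 of 8 pairs of groups had the higher mean in isolation. Here and below, the means of pairs of groups are compared on the log2 scale. The fitted log2 difference was 0.51 (SE 0.18, 1.43-fold, unadjusted p = 0.00655, adjusted p = 0.995).

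Hapln1 in AMY ran from 10.3 to 26.0 CPM with a median of 14.7 in group-housed mice and from 9.92 to 33.5 with a median of 17.1 in isolated mice (means 15.6 ± 3.47, SD, n = 58, and 17.4 ± 3.81, n = 57). Isolated libraries were above the group-housed median in 47 of 57 cases, and all 8 pairs of groups pointed the same way, though each pair overlapped. The log2 difference was 0.16 (SE 0.06, 1.12-fold, unadjusted p = 0.0052, adjusted p = 0.995). The 3 proteoglycan genes showed smaller differences there: 0.09 for Acan (SE 0.07), 0.03 for Bcan (SE 0.03) and 0.03 for Ncan (SE 0.04). Tnr came between them and Hapln1 at 0.07 (SE 0.04, unadjusted p = 0.0675).

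Within the title number series 1000, 1100, 1200 and 500, the AMY difference of Pvalb was 0.40, 0.47, 0.39 and 0.95, and that of Hapln1 0.21, 0.14, 0.12 and -0.03. Without replicate 2 of the isolated males with acute cocaine, which stands apart, Pvalb had 0.41 and Hapln1 0.14. The isolated libraries with Pvalb at 31.3, 29.9 and 24.3 CPM were not left out in turn. The list of 15 other markers of parvalbumin neurons includes genes of inhibitory neurons in general, such as Gad1, Gad2 and Slc32a1. In AMY 0 of 15 passed, where 0% of all genes did, and their median log2 difference was 0.04 against 0.00 over all genes. The list's median level was 5.59 in group-housed and 5.58 in isolated libraries (mean log2 CPM). Across regions that level was lowest in PFC (5.29, against 5.58 in AMY and 5.65 in Nac), where Pvalb was above both.

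Outside AMY no difference of Pvalb or Hapln1 had an unadjusted p under 0.05. Pvalb had medians of 5.92 and 5.69 CPM in group-housed and isolated mice in Nac (log2 difference 0.23, SE 0.18), 14.4 and 14.7 in PFC (0.06, SE 0.07) and 68.6 and 76.6 in VTA (0.06, SE 0.15). Hapln1 had 19.7 and 19.9 CPM in Nac (-0.00, SE 0.05), 21.4 and 22.1 in PFC (-0.01, SE 0.03) and 15.7 and 16.4 in VTA (0.09, SE 0.05). A test of whether the housing difference itself varied over the 4 regions called 0 of 6 genes and 0% of all 18627 genes, with the lowest p among the members for Hapln1 (F = 2.67, unadjusted p = 0.0471, adjusted p = 1). In Nac, the 10 libraries of series 500 alone gave lower Tnr (-1.71, adjusted p = 1.03e-04) and Hapln1 (-0.46, adjusted p = 0.00601) in isolation, but they include a single isolated female, which stands apart and holds the lowest Tnr of all libraries (20.9 CPM).

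**Figure D2:**
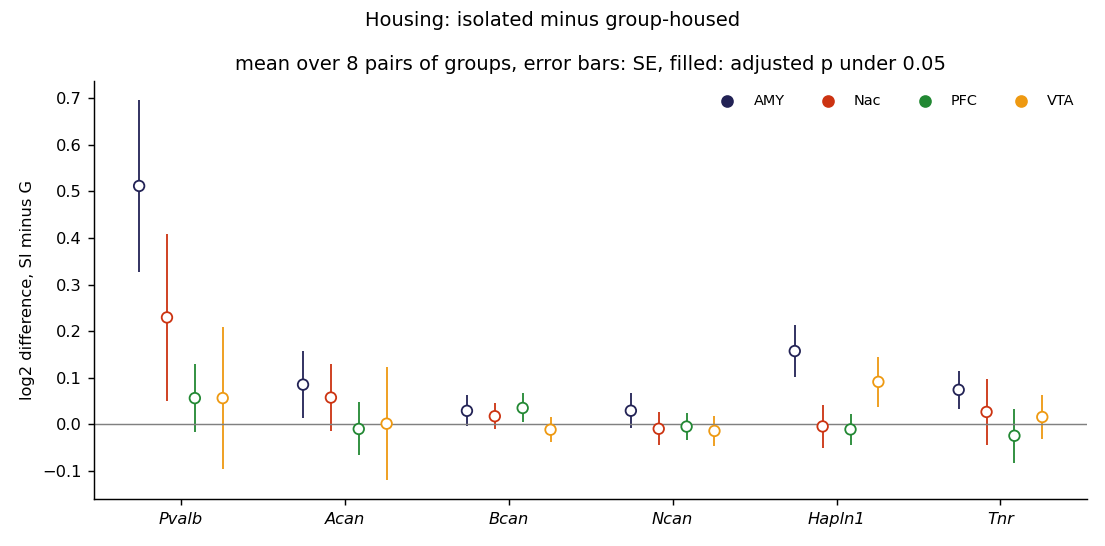
The log2 difference between isolated and group-housed mice is plotted for each gene and region, with its SE as error bar, and filled points would mark an adjusted p under 0.05. All points are open, and Pvalb in AMY at 0.51 lies farthest from 0.

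Splitting the housing comparison gave no calls among the 6 genes. In females, in males, in saline mice and in cocaine mice, and for the change of the housing difference with sex, 0 of 6 passed in each region. The background was 0% in each of these, except in VTA cocaine mice, where 0.128% of genes passed. In AMY, the differences were larger under cocaine than under saline for each of the 6 genes. That contrast was tested within each schedule, as the change of the cocaine effect with housing, and 0 of 6 passed in either. On the acute schedule the change was above 0 for 6 of 6 genes (median 0.27, lowest adjusted p = 0.463, edgeR quasi-likelihood test). On the chronic schedule it was above 0 for 4 of 6, with a median of 0.03 and a range of -0.54 to 0.07. Under cocaine, 5 of the 6 had an unadjusted p under 0.05, from Tnr (0.16, SE 0.06, unadjusted p = 0.00574) to Ncan (0.11, SE 0.05), with Pvalb at 0.56, Acan at 0.23 and Hapln1 at 0.18, all with an adjusted p of 0.55 or above. Of all 17391 genes tested in AMY, 1536 had such an unadjusted p under cocaine. Under saline, Pvalb was at 0.46, Hapln1 at 0.14, Bcan and Tnr at -0.01, Ncan at -0.05 and Acan at -0.06.

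None of the 6 genes passed the threshold for cocaine on either schedule. With acute cocaine against acute saline, 0 of 6 passed in each region, against a background of 0% in AMY and Nac, 0.0647% in PFC and 0.0467% in VTA. The single value with an unadjusted p under 0.05 was Acan in Nac, which ran from 1.68 to 6.24 CPM with a median of 3.87 after saline and from 1.80 to 4.77 with a median of 3.42 after cocaine (log2 difference -0.21, SE 0.10, adjusted p = 0.947). Of all 17266 genes tested in Nac, 894 had such an unadjusted p. Pvalb in Nac had a median of 6.77 CPM after saline and 5.45 after cocaine (-0.46, SE 0.26, adjusted p = 0.993).

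With chronic cocaine against chronic saline, again 0 of 6 passed in each region, with 7.12% of genes called in PFC, 0.151% in Nac, 0.0817% in VTA and 0.0518% in AMY. The largest background, that of PFC, came with the member nearest the threshold: Pvalb ran from 9.65 to 31.4 CPM with a median of 17.2 after saline and from 8.39 to 24.0 with a median of 14.1 after cocaine (-0.20, SE 0.10, adjusted p = 0.234). Its sign turned with the number series as a term (0.11) and within series 1200, the only series that holds both treatments (0.03). Among listed genes in PFC, the link protein gene Hapln4 was lower (-0.28, adjusted p = 0.015), and so were the potassium channel gene Kcns3 of the parvalbumin list (-0.16, adjusted p = 0.0269), the protease gene Adamts8 (-0.29) and the plasminogen activator gene Plau (-0.30). The proteases Mmp15 (0.19), Mmp24 (0.11) and Plat (0.14) and the glucuronate precursor enzyme Ugdh (0.09) were higher. These listed genes were read from the main fit only, which holds no series term. Treatment and series are therefore not separated in their values. The list of striatal projection neurons moved with this comparison, 8 of 11 markers being higher with a median of 0.55, and its part in these values was not tested. The change of the chronic cocaine effect with housing passed for 0 of 6 genes in each region (background 0% in each), and the difference between chronic and acute cocaine effects gave 0 of 6 in each region on a background of 0% in each.

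The acute cocaine effect differed by housing for 1 of the 6 genes, Hapln1 in VTA, where 1.28% of all genes passed. In AMY, Nac and PFC, 0 of 6 passed on a background of 0% each. In VTA of group-housed mice, Hapln1 ran from 8.23 to 18.6 CPM with a median of 10.7 after saline (mean 12.3 ± 3.09, SD, n = 15) and from 9.17 to 20.02 with a median of 15.7 after cocaine (15.5 ± 3.23, n = 14). In isolated mice the order was the opposite, with 8.26 to 22.6 and a median of 15.1 after saline (15.4 ± 3.95, n = 13) against 9.96 to 17.8 and a median of 13.3 after cocaine (13.4 ± 2.05, n = 15). The ranges of all 4 sets overlapped, and the group-housed saline mice had the lowest centre. The change of the log2 cocaine effect, isolated minus group-housed, was -0.55 (SE 0.15, adjusted p = 0.046).

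Pvalb and Acan showed the same arrangement without passing the threshold. Pvalb in group-housed mice had a median of 36.0 CPM after saline (15.8 to 219.6) and 80.1 after cocaine (16.1 to 213.4), and in isolated mice 71.7 after saline (20.3 to 224.6) and 36.6 after cocaine (22.8 to 157.5). The change was -1.21 for Pvalb (SE 0.43, adjusted p = 0.113) and -1.08 for Acan (SE 0.34, adjusted p = 0.0756), whose medians were 7.97, 16.04, 12.1 and 10.2 CPM in the same order. Bcan had -0.21 (SE 0.08, adjusted p = 0.109), Ncan -0.10 (SE 0.09) and Tnr 0.01 (SE 0.14), so that the genes with the widest spread had the largest values.

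The arrangement was clearest within series 1000, a difference between series that was not itself tested. There, Hapln1 of group-housed mice was 8.23 to 11.5 CPM after saline (n = 7) and 14.7 to 20.02 after cocaine (n = 7), with no overlap, and isolated mice had 14.1 to 17.1 after saline (n = 5) and 9.96 to 16.9 after cocaine (n = 9). The fit within series 1000 gave -0.96 for Hapln1 (adjusted p = 4.62e-04), -2.07 for Pvalb (adjusted p = 0.00498) and -1.60 for Acan (adjusted p = 0.00967). Within series 1100 the values were -0.20 for Hapln1 (adjusted p = 0.915), -0.59 for Pvalb and -0.52 for Acan. The call for Hapln1 was kept with RLE factors (adjusted p = 0.0468) and DESeq2 (adjusted p = 0.0343) and lost with no filter on low counts (adjusted p = 0.0837), limma voom (0.0778), the series as a term (0.0542) or without the libraries that stand apart (-0.55, adjusted p = 0.0766).

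Other lists moved with this comparison. Of 15 parvalbumin neuron markers, 2 were lower, the potassium channel genes Kcnab3 (-0.80, adjusted p = 0.0229) and Kcnc1 (-0.48, adjusted p = 0.0392), and the list's median was -0.27 against 0.01 over all genes. All 12 choroid plexus markers were higher with a median of 4.495, and the level of that list reached 5.48 in group-housed saline and 7.51 in isolated cocaine mice, against at most 1.53 in the others (mean log2 CPM). Dopamine neuron markers had a median change of 0.56 with 0 of 11 called, and the list's median level was 7.55, 6.99, 7.11 and 7.48 in group-housed saline, group-housed cocaine, isolated saline and isolated cocaine mice, the reverse of the order of Hapln1. Without the libraries that stand apart, the Hapln1 value was as large but its call was lost, as given above. The part of these lists in the result was not tested, with those libraries or without them. None of the 3 matrix lists had a called gene there.

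**Figure D3:**
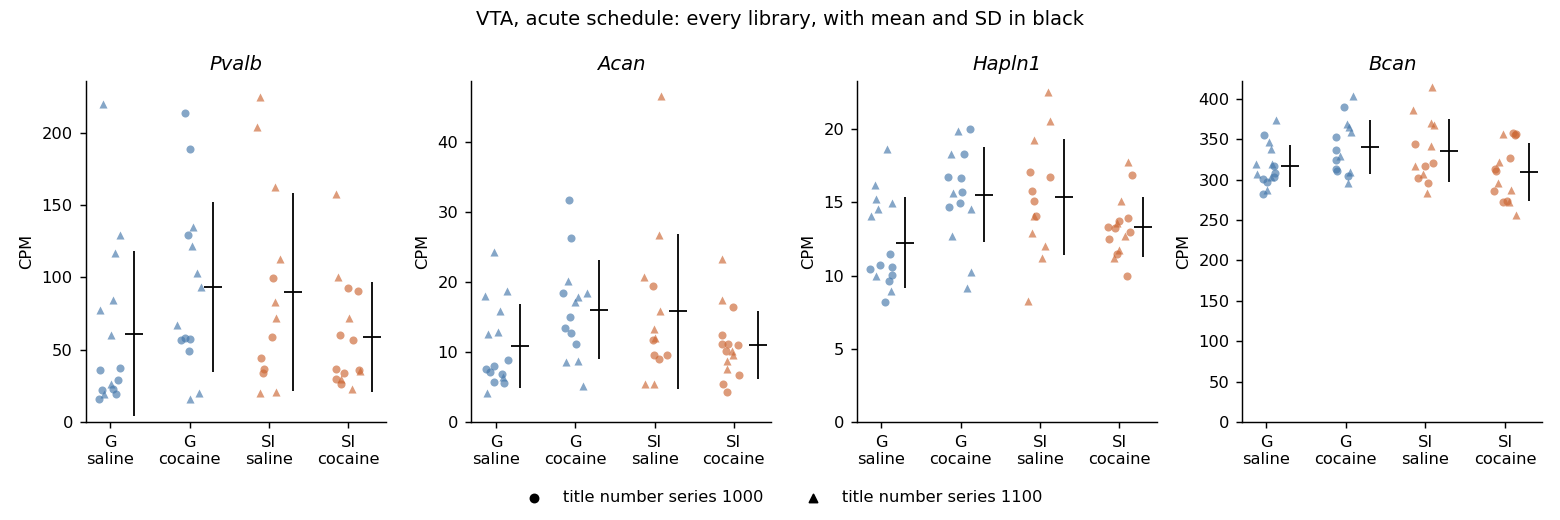
CPM of Pvalb, Acan, Hapln1 and Bcan in VTA libraries of the acute schedule by housing and treatment, with circles for series 1000, triangles for series 1100 and the mean and SD of each set in black. Hapln1 circles of group-housed saline mice lie at or below 11.5 CPM and those of group-housed cocaine mice at or above 14.7, while the triangles of both sets share one range.

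Of the comparisons within regions, schedule gave most of the calls among the 6 genes. Chronic saline was set against acute saline, and chronic cocaine against acute cocaine, and in saline mice schedule and title number series cannot be told apart because no series holds both. A fit with the series as a term joins the saline schedules only through chronic cocaine libraries of series 1000 and 1200. It therefore cannot separate schedule from series in saline mice. In saline mice, 2 of 6 genes passed in Nac and 1 of 6 in each of AMY, PFC and VTA, against 20.9% of all genes in Nac and 20.4%, 23.3% and 43.6% in the others. In cocaine mice, 2 of 6 passed in AMY, 1 of 6 in each of Nac and VTA and 0 of 6 in PFC, against 18.4%, 24.3%, 38.2% and 18.5% of all genes. The members' shares were below the background in PFC and VTA and within 1 gene of it in AMY and Nac, so that these counts are no result about the 6 genes as a set.

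Bcan passed as higher on the chronic schedule in AMY under both treatments, and in Nac and PFC in saline mice only. In cocaine mice it had the higher mean in 2 of 4 pairs of groups in Nac and 3 of 4 in PFC, without a call. In AMY it rose from a median of 227 CPM (183 to 286) to 249 (206 to 338) in saline mice, with 25 of 30 chronic libraries above the acute median (log2 difference 0.17, SE 0.05, adjusted p = 0.00617). In AMY of cocaine mice it rose from 226 (185 to 283) to 247 (171 to 364), a difference of 0.19 (SE 0.05, adjusted p = 0.00201) that was 0.28 within series 1000, the only one that holds both schedules (adjusted p = 0.00325). Bcan in saline mice also rose in Nac, from a median of 277 to 303 CPM (0.12, SE 0.04, adjusted p = 0.0204), and in PFC, from 198 to 211 (0.12, SE 0.04, adjusted p = 0.0315), with the higher mean in 4 of 4 pairs of groups in each. In VTA it was at 0.00 (SE 0.04). With the series as a term, which cannot separate schedule from series in saline mice, none of the 3 saline calls was kept. The log2 differences were then 0.31 in AMY (SE 0.09, adjusted p = 0.0702), 0.13 in Nac (SE 0.08, adjusted p = 0.951) and 0.24 in PFC (SE 0.09, adjusted p = 0.289). Without a filter on low counts the calls of Nac (0.11, adjusted p = 0.0668) and PFC (0.12, adjusted p = 0.0566) were lost with little change in size.

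Hapln1 rose in VTA on the chronic schedule under both treatments. Saline mice went from a median of 14.1 CPM (8.23 to 22.6) to 17.1 (11.7 to 22.5), and cocaine mice from 14.0 (9.17 to 20.02) to 17.6 (11.1 to 24.7). The acute libraries reached lower, and 25 of 29 chronic libraries lay above the acute median under either treatment. The log2 difference was 0.31 in saline mice (SE 0.08, adjusted p = 5.42e-04) and 0.31 in cocaine mice (SE 0.07, adjusted p = 4.28e-04), and 0.32 within series 1000 in cocaine mice (adjusted p = 8.67e-04). Hapln1 also rose in AMY of cocaine mice, from a median of 14.4 (9.92 to 22.2) to 16.9 CPM (10.3 to 33.5), with 27 of 30 chronic libraries above the acute median (0.22, SE 0.08, adjusted p = 0.0315). That call was lost with no filter (adjusted p = 0.061) and without replicate 1 of the isolated males with acute cocaine (0.21, adjusted p = 0.0537).

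The remaining calls were in Nac. Acan fell in saline mice, from a median of 3.87 CPM (1.68 to 6.24) to 2.97 (1.49 to 5.79), with 22 of 28 chronic libraries below the acute median (-0.30, SE 0.10, adjusted p = 0.0254). It did not pass without the libraries that stand apart (-0.26, adjusted p = 0.064) or with the series as a term (-0.12, adjusted p = 1). Ncan rose in cocaine mice, from 245 (161 to 305) to 260 CPM (203 to 382), by 0.15 (SE 0.05, adjusted p = 0.0161), and had 0.12 within series 1000 (adjusted p = 0.227). Pvalb in AMY of cocaine mice had 0.49 (SE 0.26, adjusted p = 0.18), which became 0.76 without the libraries that stand apart (adjusted p = 0.0397), 0.92 with the series as a term (adjusted p = 0.0177) and 1.01 within series 1000 (adjusted p = 0.041). In VTA, acute Pvalb libraries ran from 15.8 to 224.6 CPM (coefficient of variation 75.8%) and chronic ones from 36.9 to 159.1 (32.6%). The VTA medians of Pvalb were 51.3 CPM in acute and 78.9 in chronic saline mice and 57.95 and 82.3 in cocaine mice, and 27 of 29 and 26 of 29 chronic libraries lay above the acute median. The log2 difference was 0.12 in saline mice (SE 0.22, adjusted p = 0.682) and 0.28 in cocaine mice (SE 0.21, adjusted p = 0.315). It became 0.49 and 0.47 with limma voom (adjusted p = 0.0554 and 0.071) and 0.84 and 0.62 with the series as a term (adjusted p = 0.214 and 0.0348), the last of which passed.

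**Figure D4:**
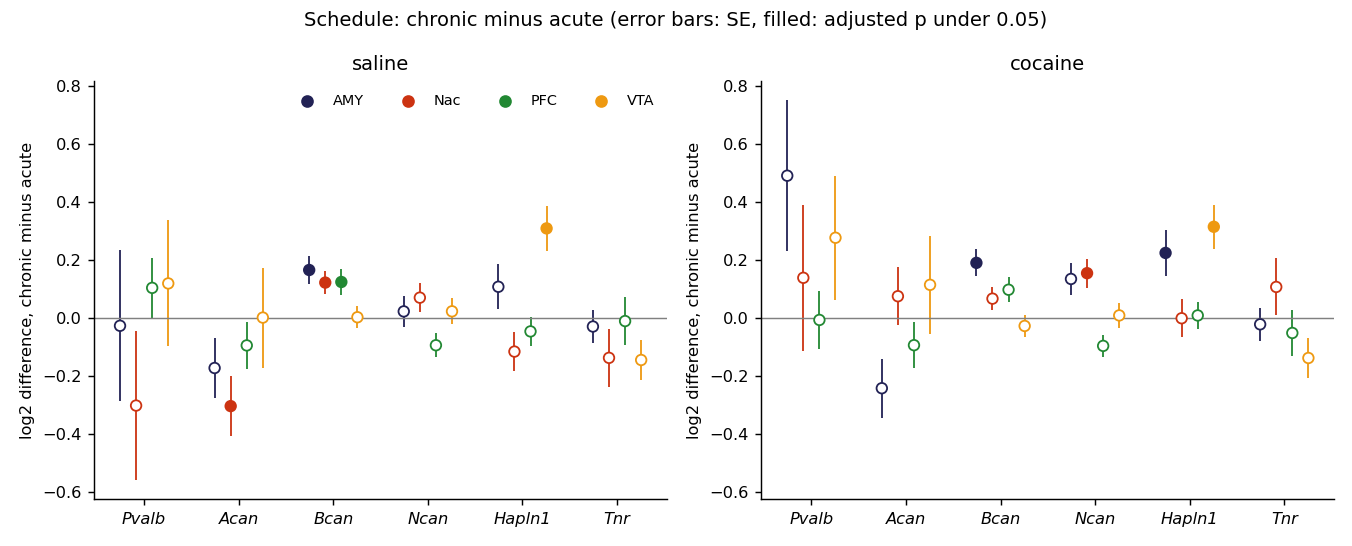
The log2 difference between chronic and acute schedule is plotted for each gene and region with its SE, in saline mice (left) and cocaine mice (right), and filled points mark an adjusted p under 0.05. Hapln1 in VTA lies at 0.31 in both, and Bcan in AMY is filled in both.

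Single matrix genes outside the 6 passed with schedule as well. In VTA, 43.6% of all genes passed in saline mice and 38.2% in cocaine mice. The counts of the list of 18 further net and matrix genes were near these shares and are no result about the list. Its median was -0.05 under both treatments against 0.00 over all genes. It had 7 lower and 0 higher in saline mice and 6 lower and 0 higher in cocaine mice. Among them were the hyaluronan receptor Cd44 (-0.95 in saline, -0.85 in cocaine mice), the neuronal pentraxin Nptx2 (-0.71, -0.68), the semaphorin Sema3a (-0.59, -0.78), the tenascin Tnc (-0.51, -0.43) and versican, Vcan (-0.14, -0.12). Nptx2 fell in PFC too (-0.60 and -0.72). Of 26 matrix proteases, hyaluronidases and inhibitors tested, the tissue plasminogen activator gene Plat fell in all 4 regions under both treatments, from -0.25 in Nac of saline mice to -0.39 in PFC of saline mice and in AMY of cocaine mice.

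Cell type lists also held called genes. Of all genes, 43.6% passed in VTA of saline mice and 38.2% in VTA of cocaine mice. In AMY the shares were 20.4% and 18.4%, and in Nac of saline mice 20.9%. In saline mice, schedule and series cannot be told apart for these lists either. In VTA, all 10 microglial markers were higher on the chronic schedule (median 0.43 in saline and 0.37 in cocaine mice), dopamine neuron markers were higher in 9 and lower in 1 of 11 (0.71 and 0.57), and parvalbumin neuron markers were higher in 7 and lower in 2 of 15 in saline mice and 8 and 3 in cocaine mice. That list's level ran from 5.62 to 6.30 in acute and from 5.85 to 6.36 in chronic libraries. In AMY, 9 of 10 endothelial markers were higher under either treatment (0.26 and 0.34), as were 5 and 6 of 12 astrocyte markers (0.13 and 0.12). In Nac of saline mice, 6 of 15 parvalbumin neuron markers were lower and 1 higher, and the link protein gene Hapln4 of the net and matrix list fell (-0.62, adjusted p = 0.0221). The part of these lists in the members' differences was not tested.

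Between the sexes, 1 of 6 genes passed in AMY, where 2.19% of all genes did, and 0 of 6 passed in Nac, PFC and VTA, on backgrounds of 0.272%, 1.12% and 0.332%. Acan in AMY was lower in females, from 2.21 to 7.14 CPM with a median of 3.39 (mean 3.73 ± 1.06, SD, n = 59), than in males, from 1.98 to 9.998 with a median of 4.22 (4.45 ± 1.37, n = 56). Females lay below the male median in 45 of 59 cases and had the lower mean in 8 of 8 pairs of groups, none of which was free of overlap. The females include replicate 1 of the isolated acute cocaine group, which stands apart through transcripts of the opposite sex. The log2 difference was -0.27 (SE 0.07, adjusted p = 0.023). It was -0.50 within series 1000, 0.01 within 1100, -0.24 within 1200 and -0.04 within 500, and the call was lost without replicate 3 of the isolated males with acute cocaine, the library at 9.998 CPM (-0.24, adjusted p = 0.0568). Beside it in AMY, the chondroitin chain enzyme gene Chpf was higher (0.13, adjusted p = 0.00363) and the matrix protease gene Mmp14 lower (-0.20, adjusted p = 0.00632) in females, and 6 of 12 choroid plexus markers were lower (median -1.18), whose part was not tested.

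How the genes varied together was examined over the libraries of each region, on log2 CPM after subtracting group means, as 15 pairs in 4 regions with Benjamini-Hochberg adjustment over the 60. In VTA, 9 of 15 pairs passed, and Pvalb and Acan made the closest pair of all 60 (r = 0.838, rho = 0.814, n = 115, each with a permutation p of 1e-05, the smallest that 100000 resamples give, adjusted p = 5e-05 and 5.45e-05). Without the 2 libraries farthest from the median r was 0.821, and within series 500, 1000, 1100 and 1200 it was 0.576, 0.803, 0.934 and 0.601. Hapln1 went with both, at r = 0.685 with Acan (rho = 0.620, 0.647 without the 2 farthest libraries) and r = 0.622 with Pvalb (rho = 0.558, 0.577 without them), with the same permutation p for each. Within series 1100 and 1200 these were 0.834 and 0.753 for Acan and 0.804 and 0.280 for Pvalb, while series 500 had the opposite sign (-0.382 and -0.200). Bcan followed Pvalb less closely (r = 0.461, rho = 0.438, 0.431 without the 2 farthest libraries), with 0.428 to 0.545 within the series.

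The other regions had other pairs. In AMY, where 7 of 15 passed, Ncan went with Hapln1 (r = 0.670, rho = 0.641, 0.653 without the 2 farthest libraries, 0.436 to 0.722 within the series) and Pvalb with Bcan (r = 0.658, rho = 0.616, 0.623 without them, 0.598 to 0.734 within the series), each with a permutation p of 1e-05. Pvalb and Acan had r = 0.169 there (rho = 0.090, adjusted permutation p = 0.132). In Nac, 8 of 15 passed, among them Ncan with Hapln1 (r = 0.498, rho = 0.479, 0.514 without the 2 farthest, 0.389 to 0.729 within the series). Pvalb went with Acan (r = 0.467, rho = 0.460, 0.488 without them) in series 1000, 1100 and 1200 (0.528 to 0.610) and had the opposite sign in series 500 (-0.347). Bcan and Hapln1 ran in opposite directions (r = -0.435, rho = -0.380, -0.379 without them, -0.056 to -0.479 within the series). In PFC, 7 of 15 passed by Pearson's r and 4 by Spearman's rho. Pvalb and Acan had r near 0 there (r = -0.036, rho = -0.033, adjusted permutation p = 0.75), and the closest pair, Ncan with Tnr (r = 0.512, rho = 0.338), had 0.386 without the 2 farthest libraries, 0.288 without those that stand apart and 0.221 to 0.957 within the series.

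**Figure D5:**
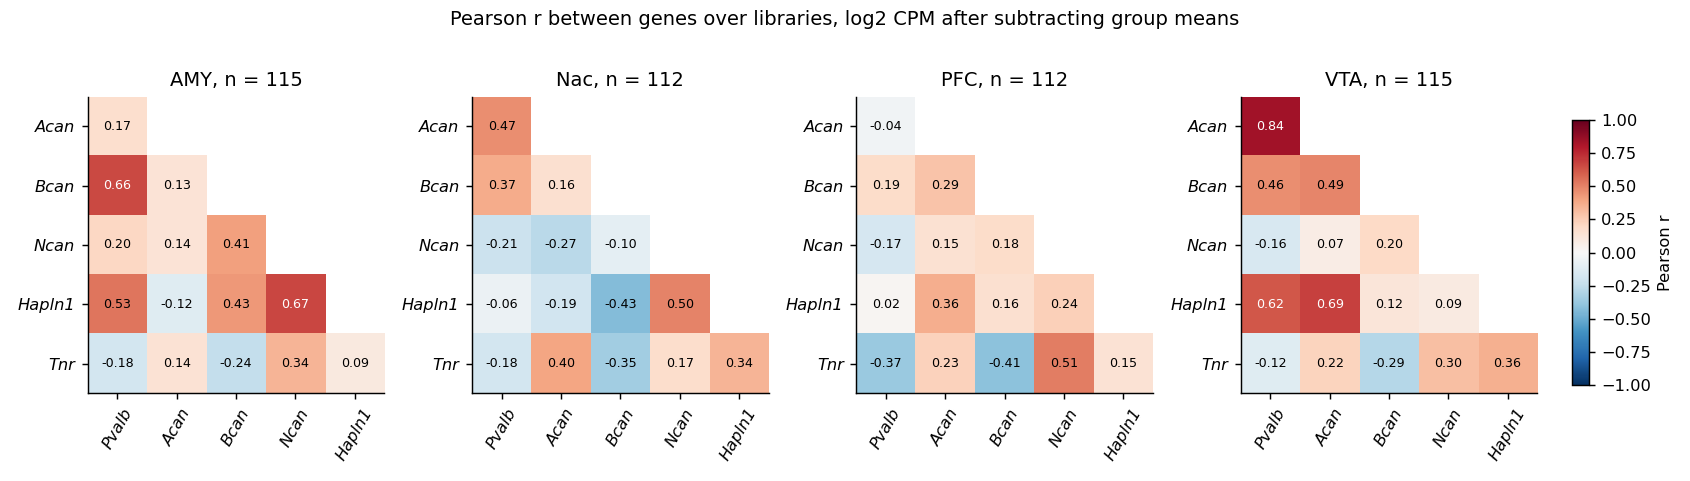
Pearson's r between each pair of genes over the libraries of a region, after subtracting group means, from -1 (blue) to 1 (red). Pvalb with Acan is 0.84 in VTA and -0.04 in PFC, and Tnr is below 0 with Bcan in all 4 regions.

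The same levels were set against those of 14 cell type lists and a measure of transcript length, 360 relations in all with their own adjustment. The parvalbumin neuron list, which leaves out Pvalb itself, followed Pvalb in Nac (r = 0.788, rho = 0.793, 0.762 without the 2 farthest libraries), AMY (r = 0.775, rho = 0.667, 0.729) and VTA (r = 0.733, rho = 0.698, 0.695), each with a permutation p of 1e-05. In PFC the relation was weaker (r = 0.277, rho = 0.290, 0.225 without the 2 farthest, adjusted permutation p = 0.0163) and -0.164 within series 500. Acan followed that list in Nac (r = 0.712, rho = 0.681, but -0.076 within series 500), VTA (r = 0.707, rho = 0.672, 0.554 to 0.815 within the series) and PFC (r = 0.533, rho = 0.528, 0.557 to 0.629 within the series), each with a permutation p of 1e-05. The relation did not pass in AMY (r = 0.064, rho = -0.122, adjusted permutation p = 0.607). In VTA, Acan ran against the astrocyte list (r = -0.711, rho = -0.646, -0.688 without the 2 farthest) and the dopamine neuron list (r = -0.612, rho = -0.598, -0.607 without them), and it did so within each of the 4 series (-0.577 to -0.833 and -0.559 to -0.865). In Nac, Acan ran against the striatal projection neuron list (r = -0.650, rho = -0.690, -0.592 to -0.708 within the series). In AMY, Bcan went with the list of oligodendrocyte precursors (r = 0.629, rho = 0.583, 0.397 to 0.832 within the series). Levels of all lists share the library and its dissection with the members.

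Tnr, the gene with the longest transcript of the 6 (12.87 kb of exon), followed transcript length. The measure, added after the data had been seen, was the mean log2 CPM of 1486 genes with at least 10000 bases of exon minus that of 3739 genes with at most 2000. Its r with Tnr was 0.911 in PFC (rho = 0.782, 0.879 without the 2 farthest libraries), 0.904 in Nac (rho = 0.763, 0.837 without them), 0.897 in VTA (rho = 0.728, 0.782 without them) and 0.822 in AMY (rho = 0.727, 0.742 without them), each with a permutation p of 1e-05, and from 0.656 to 0.967 within the series. Bcan ran against it in each region (r from -0.289 to -0.469), and Ncan with it (0.314 to 0.562). RNA quality scores were not used here, and the part of RNA quality in Tnr was not tested.

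The genes most like each member were those of the highest mean r over the 4 regions among 13597 genes. For Pvalb they were the myokine precursor gene Fndc5 (0.81), the potassium channel subunit Kcnab3 (0.81) and the neurofilament Nefh (0.79), the last 2 of which are on the parvalbumin neuron list. For Acan they were Specc1 (0.59), the potassium channel Kcnj10 (0.57) and the protease Mmp15 (0.56), with 0.82 or above in VTA for each of the 3. Bcan had Vegfb (0.63), Cntfr (0.63) and Slc27a1 (0.62). Among those of Ncan were the adhesion receptor Adgrl1 (0.74) and the catenin Ctnnd2 (0.71), and Hapln1 was closest to Mfap3l (0.75), the membrane glycoprotein Gpm6b (0.70) and the deiodinase Dio2 (0.66). Tnr had the closest companions of the 6, Stxbp5l (0.91), Vps13c (0.91) and Nr2c2 (0.90), and the part of transcript length in this was not tested.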

How the data were processed

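RNA of 4 mouse brain regions was read in 454 poly(A)-selected, stranded libraries (50-base single-end reads, per the labels' protocols). The authors deposited whole-number counts per gene, and the submitters' processing notes name STAR, featureCounts, limma and GRCm38/mm10, with versions not given in the sources used here. Library totals of 11.21 to 52.34 M limit the precision of low genes such as Acan. Of 43346 Ensembl identifiers, 42462 were given a symbol.

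Counts were fitted per region in R 4.3.3 with edgeR 4.0.16 (filterByExpr, TMM, robust quasi-likelihood test, 16 group means), and p-values were adjusted by Benjamini-Hochberg over all genes tested, with a threshold of 0.05. SEs were derived from the F statistic. Regions were compared in 1 fit of 18627 genes. DESeq2 1.42.0 and limma 3.58.1 served as alternatives. Only the edgeR fit of housing in VTA was tried on simulated counts, with the same spread for all genes and no difference between series. Replicate libraries differed by more than sampling noise in each of 1399 pairs, and none was merged. The members and gene lists were chosen with earlier results of these data known. Named are the 6 genes, at most 6 listed genes past the threshold per comparison and region, and for each of the 6 the 3 genes of most similar pattern, of which 1 is not reported here.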

Additional observations from a re-analysis of the deposited data

Results flagged for a closer look

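Within each group of 5 to 8 libraries, the highest and lowest value of each gene were compared with the nearest other value by Dixon's criterion, and 62 of 384 combinations of gene and group held a library far from the others, 41 high and 21 low. Chance alone marks about 1 in 20 groups. Of the 62, 13 came from libraries that stand apart.

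Pvalb had 17 such libraries, all high and 4 of them among those that stand apart. High Pvalb in AMY was 7.83 CPM in replicate 8 of the female group-housed acute cocaine group, 31.3 CPM in replicate 7 of the female isolated acute cocaine group, 24.3 CPM in replicate 5 of the female isolated chronic saline group, 13.7 CPM in replicate 2 of the male isolated acute cocaine group and 29.9 CPM in replicate 1 of the male isolated chronic cocaine group. High Pvalb in Nac was 21.6 CPM in replicate 6 of the female isolated chronic saline group, 22.7 CPM in replicate 4 of the male group-housed chronic saline group, 9.59 CPM in replicate 6 of the male isolated acute cocaine group and 18 CPM in replicate 5 of the male isolated chronic saline group. High Pvalb in PFC was 31.4 CPM in replicate 7 of the female group-housed chronic saline group, 23.6 CPM in replicate 1 of the female isolated chronic cocaine group, 32.5 CPM in replicate 5 of the female isolated acute saline group, 22.1 CPM in replicate 7 of the male group-housed acute cocaine group, 23.1 CPM in replicate 5 of the male group-housed chronic saline group and 25 CPM in replicate 7 of the male isolated acute saline group. High Pvalb in VTA was 219.6 CPM in replicate 7 of the male group-housed acute saline group and 114.7 CPM in replicate 1 of the male group-housed chronic saline group.

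Acan had 5, all high. High Acan in AMY was 9.998 CPM in replicate 3 of the male isolated acute cocaine group. High Acan in Nac was 5.21 CPM in replicate 7 of the male group-housed chronic cocaine group. High Acan in PFC was 4.77 CPM in replicate 3 of the male isolated acute cocaine group. High Acan in VTA was 46.5 CPM in replicate 5 of the female isolated acute saline group and 20.5 CPM in replicate 6 of the male isolated chronic saline group. Bcan had 10, of which 9 were high. High Bcan in AMY was 258.6 CPM in replicate 8 of the female group-housed acute cocaine group, 275.1 CPM in replicate 5 of the female group-housed acute saline group, 283.0 CPM in replicate 7 of the female isolated acute cocaine group, 323.4 CPM in replicate 5 of the female isolated chronic saline group and 327.5 CPM in replicate 2 of the male group-housed chronic saline group. High Bcan in Nac was 434.1 CPM in replicate 4 of the male group-housed chronic saline group. High Bcan in PFC was 262.5 CPM in replicate 1 of the female isolated chronic cocaine group. High Bcan in VTA was 373.6 CPM in replicate 7 of the male group-housed acute saline group and 424.8 CPM in replicate 2 of the male isolated chronic saline group. Low Bcan in Nac was 254.2 CPM in replicate 8 of the male group-housed chronic cocaine group.

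Ncan had 6, of which 2 were high. High Ncan in AMY was 248.5 CPM in replicate 2 of the male group-housed chronic saline group. High Ncan in VTA was 121.4 CPM in replicate 1 of the male isolated chronic cocaine group. Low Ncan in Nac was 158.3 CPM in replicate 4 of the male group-housed chronic saline group. Low Ncan in PFC was 259.4 CPM in replicate 4 of the female group-housed acute cocaine group, 228.0 CPM in replicate 7 of the female isolated acute cocaine group and 266.6 CPM in replicate 1 of the female isolated chronic cocaine group. Hapln1 had 9, of which 7 were high. High Hapln1 in AMY was 23 CPM in replicate 3 of the male group-housed acute saline group, 22.1 CPM in replicate 2 of the male isolated acute cocaine group and 33.5 CPM in replicate 1 of the male isolated chronic cocaine group. High Hapln1 in PFC was 35.3 CPM in replicate 5 of the female isolated acute saline group and 31.8 CPM in replicate 3 of the male group-housed chronic cocaine group. High Hapln1 in VTA was 16.9 CPM in replicate 1 of the male isolated acute cocaine group and 24.6 CPM in replicate 1 of the male isolated chronic cocaine group. Low Hapln1 in Nac was 10.4 CPM in replicate 6 of the female isolated chronic saline group. Low Hapln1 in VTA was 9.17 CPM in replicate 7 of the male group-housed acute cocaine group.

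Tnr had 15, of which 14 were low. Low Tnr in AMY was 174.2 CPM in replicate 8 of the female group-housed acute cocaine group and 95.2 CPM in replicate 1 of the male group-housed acute cocaine group. Low Tnr in Nac was 103.2 CPM in replicate 4 of the female isolated acute cocaine group, 20.9 CPM in replicate 6 of the female isolated chronic saline group, 134.3 CPM in replicate 5 of the male group-housed acute cocaine group and 76.3 CPM in replicate 5 of the male isolated acute cocaine group. Low Tnr in PFC was 113.9 CPM in replicate 7 of the female isolated acute cocaine group, 153.4 CPM in replicate 1 of the female isolated chronic cocaine group, 196.4 CPM in replicate 5 of the female isolated acute saline group, 134.3 CPM in replicate 5 of the female isolated chronic saline group, 117.2 CPM in replicate 7 of the male group-housed acute saline group and 148.9 CPM in replicate 2 of the male group-housed chronic saline group. Low Tnr in VTA was 146.9 CPM in replicate 8 of the female group-housed chronic saline group and 45.6 CPM in replicate 2 of the male isolated chronic saline group. High Tnr in Nac was 429.3 CPM in replicate 3 of the male isolated chronic cocaine group. The 14 low values of Tnr fell on libraries with the lowest level of long relative to short transcripts in their group, in 14 of 14 cases. Some flagged values of Pvalb, Bcan, Ncan and Hapln1 also fell on such libraries, and others did not. Among those that did was the isolated AMY library with Pvalb at 31.3 CPM.

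The other result is a difference between groups: the change of the acute cocaine effect on Hapln1 with housing in VTA was -0.55 on the log2 scale, isolated minus group-housed (adjusted p = 0.046 by edgeR's quasi-likelihood test), with levels and alternatives as given in the results.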

How the results depend on the processing

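Over 67 comparisons, 540 alternative counts of called genes or pairs stayed within 1.5 times the value reported and 31 did not. A count of 0 that stayed at 0 is among the 540. Most of the 67 comparisons called 0 of the 6 genes, so the tally is no measure of how stable the calls were. The alternatives were RLE factors, no filter on low counts, DESeq2, limma voom, the title number series as a term, each series alone, leaving out the libraries that stand apart, and leaving out each library of the smallest group. Of 305 alternatives for 30 single log2 differences, 259 kept their direction and side of the threshold, 19 lost and 6 gained the threshold, and 21 turned in sign. The cause was not tested. The number called in AMY went from 1 to 0 for schedule in saline mice with the series as a term and from 2 to 1 for schedule in cocaine mice with no filter, with a range of 1 to 2 when single libraries were left out. For sex in AMY it went from 1 to 0 within each of the series 1000, 1100, 1200 and 500, with a range of 0 to 1. In Nac within series 500, where 1 library forms the isolated female arm, it went from 0 to 2 for housing in all and in saline mice and from 0 to 3 for housing in females, for its change with sex and for sex. Schedule in saline mice went in Nac from 2 to 1 with no filter, 0 with the series as a term and 1 without the libraries that stand apart, and in PFC from 1 to 0, 0 and 2. Schedule in cocaine mice went from 1 to 0 in Nac within series 1000, from 0 to 1 in PFC without the libraries that stand apart and from 1 to 2 in VTA with the series as a term. In VTA within series 1000, housing in saline mice and acute cocaine each went from 0 to 1. The change of the acute cocaine effect with housing in VTA went from 1 to 0 with no filter, limma voom, the series as a term, without the libraries that stand apart and within series 1100, and to 3 within series 1000. Pairs past the threshold in PFC went from 7 to 4 with Spearman's rho.

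For housing in AMY, the sign turned for Acan within series 1200 (-0.0101), Bcan within 1100 (-2.98e-04), Ncan within 1100, 1200 and 500 (-0.0273, -0.0523 and -0.1092), Hapln1 within 500 (-0.0278) and Tnr within 500 (-0.0026). In Nac it turned for Pvalb within 1100 (-0.10) and for Hapln1 without the libraries that stand apart (0.0044) and within 1100 and 1200 (0.0508 and 0.0638). In PFC it turned for Pvalb within 1100 and 500 (-0.0147 and -0.0556) and Hapln1 within 1000 and 1100 (0.02 and 0.043), and in VTA for Pvalb without the libraries that stand apart (-0.0147). Tnr in VTA turned for the change of the acute cocaine effect with housing without those libraries (-0.011) and within 1000 (-0.0905). Acan in AMY turned for sex within 1100 (0.006). Pvalb in PFC turned for chronic cocaine with the series as a term (0.11) and within 1200 (0.0285).

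With title number as a replicate block in limma voom across regions (consensus correlation 0.03), the 6 region contrasts called 6, 5, 5, 6, 6 and 6 genes and housing between regions 0, as without the block. No paired analysis was possible within a region because the replicate numbers there follow accession order only.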
